A study of Mus musculus with 6 samples.

Results

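Thioredoxins, thioredoxin reductases and peroxiredoxins were examined in satellite cells, the stem cells of skeletal muscle, during their first day after injury. The members were 10 named genes of the count table, taken by row name: Txn1, Txn2, Txnrd1, Txnrd2 and Prdx1 to Prdx6. They were chosen with earlier results of these data known. All 10 were found among 45527 named rows, and all 10 passed the filter on low counts with 16252 genes in all. RNA sequencing compared 3 libraries labelled Paxbp1-iKO with 3 control libraries. The Paxbp1-iKO genotype carried Pax7creER, floxed Paxbp1 on both alleles and the R26R-YFP reporter, and the control genotype carried Pax7creER, floxed Paxbp1 on 1 allele and R26R-YFP. Cre was thus driven from the Pax7 locus in both groups, and control cells carry a floxed allele too. Hindlimb muscles of all mice received 30 µl of cardiotoxin, which destroys muscle fibres, and cells were sorted by yellow fluorescence 24 h later. The sources used here state neither the age of the mice nor a tamoxifen schedule. They also tie no library to an animal, and p-values thus measure spread between libraries alone.

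Libraries held 23327359 to 28050748 counts in the iKO-labelled group and 23508654 to 27309423 in the controls. Paxbp1 itself stood at 96.2, 107.8 and 126.7 CPM (counts relative to the scaled library size) in iKO-labelled libraries, against 70.8, 74.1 and 61.0 CPM in controls. It was thus higher where a knockout is labelled (log2 fold change 0.68 ± 0.13 SE, edgeR adjusted p = 0.00954), and whole-gene counts cannot show whether floxed exons were deleted, so every direction below rests on the labels. All 11 satellite cell markers were detected, at a summed 12350 to 12980 CPM in iKO-labelled libraries and 9875 to 10380 CPM in controls. Of these, 5 were called higher and 3 lower. Named with their values known, Chodl (2.51 ± 0.15), Pax7 (2.13 ± 0.17) and Sdc4 (0.64 ± 0.06), the most abundant, were higher, and Itga7 (-0.68 ± 0.12) and Myf5 (-0.62 ± 0.08) were lower on the log2 scale, so the sorted cells' own markers differed between the groups. Among markers of other cells, 0 were without a count in all libraries. The 10 immune genes summed to 143 to 312 CPM in iKO-labelled libraries and 170.1 to 222 CPM in controls, and the 7 fibro-adipogenic genes to 314 to 428 CPM in iKO-labelled libraries and 309 to 486 CPM in controls. The 6 endothelial genes summed to 118 to 141 CPM in iKO-labelled libraries and 62.7 to 246 CPM in controls, and the 4 Schwann cell genes to 7.01 to 19.4 CPM in iKO-labelled libraries and 6.21 to 28.8 CPM in controls. In these 4 lists 0 genes were called. The 7 muscle fibre genes, of which Acta1 was called lower, summed to 12.5 to 17.2 CPM in iKO-labelled libraries and 16.4 to 64.3 CPM in controls. The 5 genes of smooth muscle and pericytes summed to 103 to 125 CPM in iKO-labelled libraries and 221 to 320.1 CPM in controls. Most of that gap lay in Acta2, smooth muscle actin, at 41.9 ± 7.47 CPM in iKO-labelled libraries and 197 ± 55.0 CPM in controls (SD, n = 3 each). The part of these marker differences in the results below was not tested.

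Thioredoxins are small proteins that reduce disulphides in other proteins through a pair of cysteines, and thioredoxin reductases recharge them with electrons from NADPH. Peroxiredoxins are abundant peroxidases: a peroxidatic cysteine attacks hydrogen peroxide, and in most family members thioredoxin then restores the enzyme. Txn1 and Txnrd1 serve the cytosol and nucleus, and Txn2, Txnrd2 and Prdx3 the mitochondria. Prdx1 and Prdx2 are cytosolic, Prdx4 resides in the endoplasmic reticulum, Prdx5 is spread over mitochondria, peroxisomes and cytosol, and Prdx6 has a single catalytic cysteine that glutathione restores.

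The coding windows around the catalytic codons show how the members divide. They were read from GENCODE M21 transcripts on GRCm38, 5′ to 3′ along the coding strand. In the thioredoxins, capitals mark 4 codons: the reactive cysteine pair and the glycine and proline between its members.

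Txn1: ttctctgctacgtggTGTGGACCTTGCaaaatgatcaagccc

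Txn2: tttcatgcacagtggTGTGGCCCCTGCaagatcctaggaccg

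These codons lie at chr4:57951821-57951832 on the minus strand for Txn1 and chr15:77924651-77924662 on the minus strand for Txn2. In the reductases, capitals mark an in-frame TGA that is read as selenocysteine, the catalytic residue, and stands 1 codon before the last.

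Txnrd1: ctccagtctggctgcTGAggt

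Txnrd2: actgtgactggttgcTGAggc

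The selenocysteine codons lie at chr10:82896037-82896039 and chr16:18477772-18477774, both on the plus strand. In the peroxiredoxins, capitals mark the peroxidatic cysteine codon. The next codon encodes proline in Prdx1 to Prdx4, serine in Prdx5 and threonine in Prdx6.

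Prdx1: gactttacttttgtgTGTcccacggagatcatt

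Prdx2: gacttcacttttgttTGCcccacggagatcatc

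Prdx3: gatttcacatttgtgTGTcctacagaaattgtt

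Prdx4: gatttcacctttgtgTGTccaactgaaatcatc

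Prdx5: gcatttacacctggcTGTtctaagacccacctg

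Prdx6: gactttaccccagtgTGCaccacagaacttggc

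The cysteine codons lie at chr4:116691823-116691825 (plus strand) for Prdx1, chr8:84970483-84970485 (plus) for Prdx2, chr19:60870127-60870129 (minus) for Prdx3, chrX:155332460-155332462 (minus) for Prdx4, chr19:6907988-6907990 (minus) for Prdx5 and chr1:161247368-161247370 (minus) for Prdx6.

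Both thioredoxin reductases, cytosolic thioredoxin and 4 of the 6 peroxiredoxins were lower in iKO-labelled libraries. Of the 10 members, 7 fell and 0 rose at an adjusted p under 0.05, and the 3 that did not pass were Txn2, Prdx1 and Prdx5. Among all tested genes 20.4% were called, 12.3% lower and 8.15% higher. The median log2 fold change of the members was -0.79, against 0.02 over all tested genes. CPM did not overlap between the groups for 8 members, and for 39.8% of all tested genes. Together the members took 0.412%, 0.415% and 0.407% of all counts in the iKO-labelled libraries and 0.542%, 0.562% and 0.572% in the controls. Counts come from sorted cells in bulk, so fewer cells of a kind and less RNA per cell cannot be told apart. The plot of CPM by library shows every value. All called genes split into 1324 higher and 1991 lower. Scaling by library totals instead shifted the median log2 fold change by 0.13 and gave 1921 higher and 1440 lower, with 7 members lower.

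**Figure D1:**
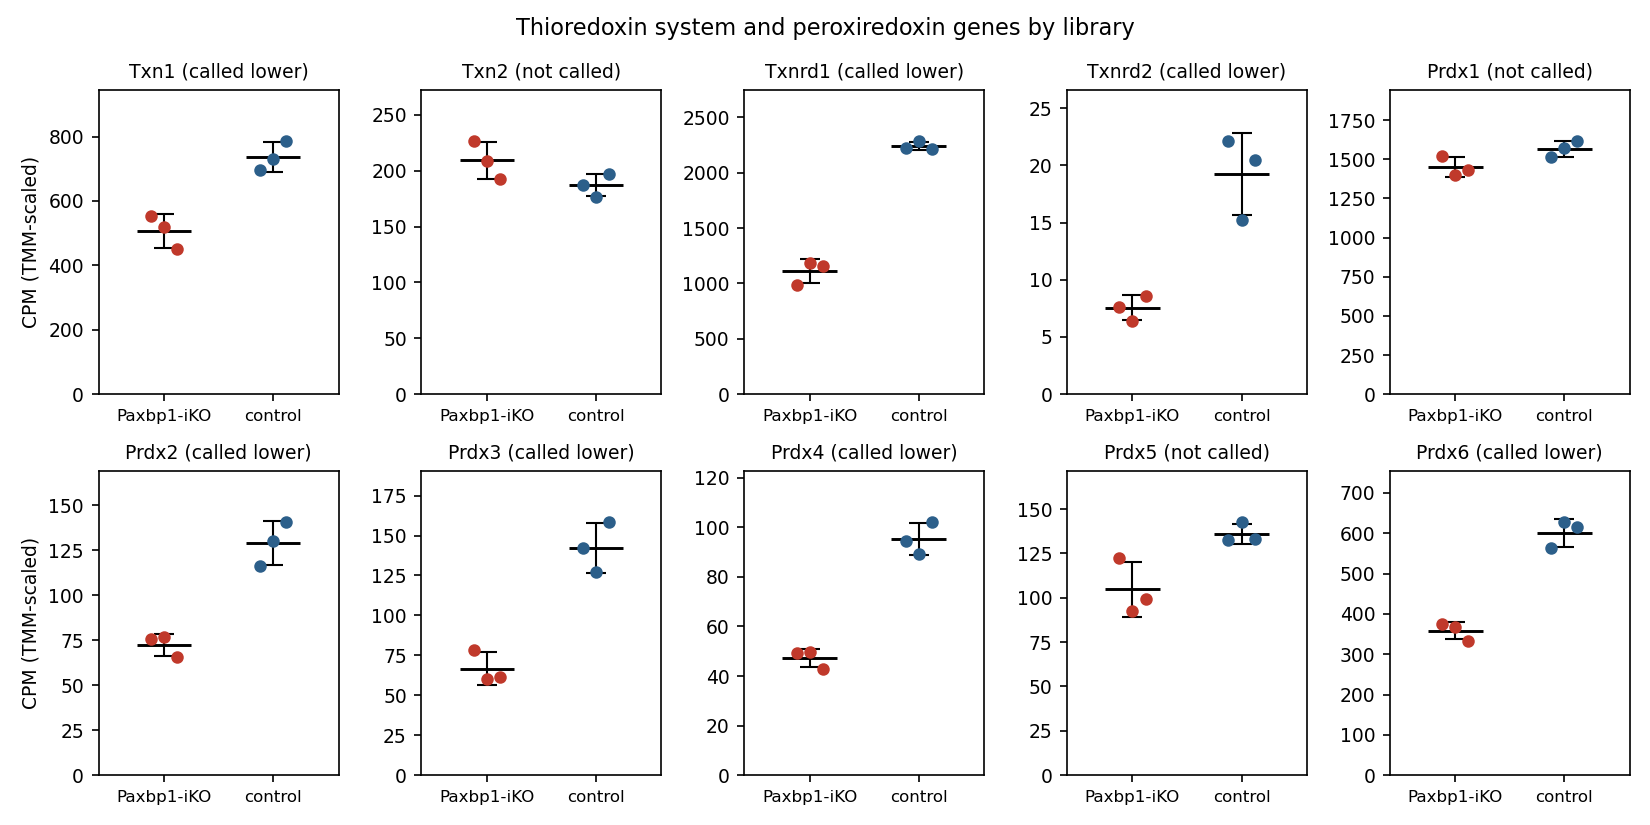
CPM of the 10 genes in each library (points), with the mean (line) and SD (whiskers) of 3 libraries per group and each axis starting at 0. For Txnrd1 the iKO-labelled libraries lie between 988 and 1184 CPM and the controls between 2214 and 2285 CPM, while the groups overlap for Txn2 and Prdx1.

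The cytosolic reductase gave the smallest p among the members. Txnrd1 (ENSMUSG00000020250.10, chromosome 10, 82833951 to 82897712, plus strand, GRCm38), which reduces cytosolic thioredoxin, had 988, 1184 and 1159 CPM in iKO-labelled libraries, against 2222, 2285 and 2214 CPM in controls. Every iKO-labelled library lay far below every control, and the controls were close to each other. Txnrd1 averaged 1110 ± 106 CPM in iKO-labelled libraries and 2240 ± 38.7 CPM in controls (SD, n = 3 each), a log2 fold change of -1.01 ± 0.08 (edgeR adjusted p = 0.000165). It ranked 88th of all tested genes by p.

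Its substrate in the cytosol fell too, with a smaller estimate. Txn1 (ENSMUSG00000028367.5, chromosome 4, 57943373 to 57956411, minus strand), the main cytosolic thioredoxin, had 552, 519 and 449.9 CPM in iKO-labelled libraries, against 695, 729.8 and 786 CPM in controls. Every iKO-labelled value lay below every control value. The log2 fold change was -0.54 ± 0.09 (edgeR adjusted p = 0.00505), with a 95% confidence interval from -0.75 to -0.33, which lies apart from the interval of Txnrd1 (-1.19 to -0.84). The difference between these changes was not tested. The deposited FPKM (fragments per gene length, scaled for depth) put Txnrd1 at 0.551, 0.702 and 0.792 of Txn1 in the iKO-labelled libraries and at 0.983, 0.963 and 0.866 in the controls, without overlap.

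In the mitochondrial pair the reductase fell and the thioredoxin did not pass the test. Txnrd2 (ENSMUSG00000075704.16, chromosome 16, 18426384 to 18479073, plus strand), the reductase of mitochondrial thioredoxin, had 7.64, 6.41 and 8.60 CPM in iKO-labelled libraries, against 22.1, 15.3 and 20.5 CPM in controls. It was the scarcest member, with 188 to 218 counts per iKO-labelled library and 395 to 534 per control library. Its log2 fold change was -1.35 ± 0.23 (edgeR adjusted p = 0.0053), the lowest estimate among the members, with an interval from -1.88 to -0.83 that overlaps those of Txnrd1, Prdx2, Prdx3, Prdx4 and Prdx6.

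Txn2 (ENSMUSG00000005354.16, chromosome 15, 77915047 to 77929006, minus strand), mitochondrial thioredoxin, had 226.6, 208 and 193 CPM in iKO-labelled libraries, against 188, 177 and 197 CPM in controls. The lowest iKO-labelled library lay within the control range. The log2 fold change was 0.16 ± 0.09 (edgeR adjusted p = 0.253), with an interval from -0.04 to 0.36. With library totals as the scale Txn2 was called higher (0.29, adjusted p = 0.0418), and under none of the other 19 alternatives. Per length, Txn2 stood at 23.7, 26.0 and 17.9 times the FPKM of Txnrd2 in iKO-labelled libraries and at 6.77, 9.25 and 7.68 times in controls. As CPM per kilobase of the representative transcript, the ratio was 41.6, 45.6 and 31.5 in iKO-labelled libraries and 11.9, 16.3 and 13.5 in controls, so its size depends on the length used, and the groups were apart on both scales.

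The peroxiredoxin of the mitochondria fell, as did Txnrd2, while Txn2 did not pass the test. Prdx3 (ENSMUSG00000024997.7, chromosome 19, 60864051 to 60874556, minus strand), a peroxidase of the mitochondrial matrix, had 78.5, 60.1 and 61.2 CPM in iKO-labelled libraries, against 142, 127 and 158 CPM in controls. The highest iKO-labelled library was well under the lowest control. Its log2 fold change of -1.10 ± 0.14 (edgeR adjusted p = 0.00141) was the lowest estimate among the peroxiredoxins. Relative to Txn2, its FPKM was 0.987, 0.822 and 0.903 in iKO-labelled libraries and 2.16, 2.05 and 2.29 in controls. Per kilobase of the representative transcript it was 0.48, 0.4 and 0.44 in iKO-labelled libraries and 1.05, 0.996 and 1.11 in controls.

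Prdx5 (ENSMUSG00000024953.17, chromosome 19, 6906697 to 6910106, minus strand), which reduces peroxides in several compartments, had 122, 92.7 and 99.5 CPM in iKO-labelled libraries, against 133, 143 and 133 CPM in controls. The groups did not overlap, with iKO 1 close to the controls. The log2 fold change of -0.38 ± 0.12 missed the threshold (edgeR adjusted p = 0.0585), and its interval ran from -0.65 to -0.10. It was called with DESeq2 (adjusted p = 0.0283) and without iKO 1 (-0.50, adjusted p = 0.0187), and 7 of 20 alternatives called it in all.

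Prdx1 and Prdx2, close relatives in the cytosol, gave different results. Prdx1 (ENSMUSG00000028691.12, chromosome 4, 116685544 to 116700822, plus strand), the most abundant peroxiredoxin here per length, had 1523, 1400 and 1434 CPM in iKO-labelled libraries, against 1514, 1575 and 1616 CPM in controls. The highest iKO-labelled library lay inside the control range. Its log2 fold change was -0.11 ± 0.06 (edgeR adjusted p = 0.23), with an interval from -0.24 to 0.02, and its sign turned when libraries were scaled by totals (0.02, adjusted p = 0.829).

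Prdx2 (ENSMUSG00000005161.15, chromosome 8, 84969587 to 84974834, plus strand), a cytosolic peroxidase also known as a major protein of red blood cells, had 75.4, 76.5 and 65.4 CPM in iKO-labelled libraries, against 116, 129.9 and 140.6 CPM in controls. The groups were apart by more than the spread within either. The log2 fold change was -0.83 ± 0.11 (edgeR adjusted p = 0.00196). The 6 red-cell markers summed to 5.92 to 17.8 CPM in iKO-labelled libraries and 3.60 to 8.20 CPM in controls. The part of red cells in the Prdx2 difference was not tested. The interval of Prdx2 (-1.09 to -0.57) lies apart from that of Prdx1, and the difference was not tested.

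The peroxiredoxin of the endoplasmic reticulum was lower as well. Prdx4 (ENSMUSG00000025289.15, chromosome X, 155323918 to 155340754, minus strand), which passes oxidising equivalents to protein disulphide isomerases, had 49.5, 49.6 and 43.0 CPM in iKO-labelled libraries, against 94.6, 89.4 and 102 CPM in controls. The groups did not approach each other. Its log2 fold change was -1.01 ± 0.11 (edgeR adjusted p = 0.000846).

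Prdx6 (ENSMUSG00000026701.15, chromosome 1, 161240112 to 161251219, minus strand), the enzyme with a single catalytic cysteine and a phospholipase activity, had 376, 367 and 334 CPM in iKO-labelled libraries, against 562, 628 and 615 CPM in controls. All iKO-labelled values lay below all controls. The log2 fold change was -0.75 ± 0.08 (edgeR adjusted p = 0.000566).

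**Figure D2:**
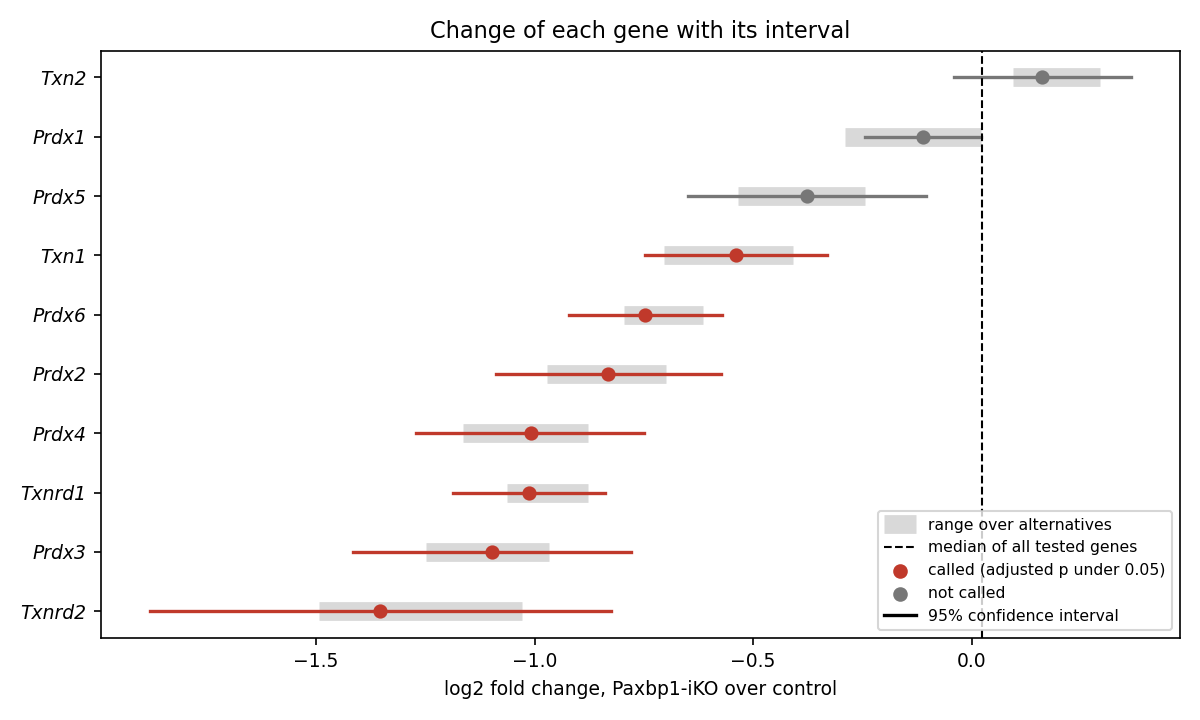
Log2 fold change of each gene, iKO-labelled over control (points), with its 95% confidence interval (lines), the range over the alternative analyses (grey bars) and the median of all tested genes (dashed line). Red marks the 7 called genes, which run from Txn1 at -0.54 to Txnrd2 at -1.35, and grey marks Txn2, Prdx1 and Prdx5.

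When a change had to exceed 1.5-fold, 4 members were called, namely Txnrd1, Txnrd2, Prdx3 and Prdx4. The calls of Txn1, Prdx2 and Prdx6 ended there (adjusted p = 1 for Txn1, 0.105 for Prdx2 and 0.117 for Prdx6). These 7 calls held under each of the other alternatives in which the gene was tested, among them each library left out in turn.

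Levels were compared between members per length, with the deposited FPKM. In iKO-labelled libraries the order was Txn1 (476 ± 49.4 FPKM), Prdx1 (471 ± 21.1), Txnrd1 (321 ± 30.4), Prdx6 (73.7 ± 4.60), Txn2 (49.1 ± 4.01), Prdx5 (48.4 ± 7.19), Prdx3 (44.5 ± 6.96), Prdx2 (23.4 ± 1.99), Prdx4 (22.2 ± 1.77) and Txnrd2 (2.22 ± 0.32). Ranges overlapped between the neighbours Txn1 and Prdx1, Txn2 and Prdx5, Prdx5 and Prdx3, and Prdx2 and Prdx4. In controls the order was Txn1 (685 ± 48.7 FPKM), Txnrd1 (639.9 ± 14.3), Prdx1 (503 ± 21.5), Prdx6 (122 ± 8.19), Prdx3 (94.1 ± 10.6), Prdx5 (62.1 ± 2.93), Prdx4 (44.2 ± 3.12), Txn2 (43.4 ± 2.41), Prdx2 (41.3 ± 4.30) and Txnrd2 (5.60 ± 1.01). There the overlaps were between Txn1 and Txnrd1, Prdx4 and Txn2, and Txn2 and Prdx2. By FPKM, Txnrd1 stood below Prdx1 in every iKO-labelled library and above it in every control library. The FPKM of 8 members divide by the length of all their annotated exons together, which for Prdx1 was 3043 bases, against 2294 for the representative transcript, while the lengths behind Txnrd1 and Txnrd2 were 0.482 and 0.763 of their own exon length. The order depends on the length used. As CPM per kilobase of the representative transcript, Prdx1 stood above Txn1 in every iKO-labelled library (633 ± 27.8 for Prdx1 and 482 ± 49.7 for Txn1), and above Txnrd1 in every control library (684 ± 22.4 for Prdx1 and 634 ± 10.9 for Txnrd1). On that scale the mean of Prdx4 (47.8 ± 3.78) lay above those of Prdx3 (45.1 ± 7) and Prdx2 (44.9 ± 3.80) in iKO-labelled libraries. The mean of Prdx5 (108 ± 4.57) lay above that of Prdx3 (96.4 ± 10.5) in controls. Prdx3 did not keep these places in every library. It stood above Prdx4 in iKO 1 (53.14 and 49.95) and above Prdx5 in control 3 (107.1 and 105.4).

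The make-up of the peroxiredoxin family differed between the groups. The 6 genes summed to 728, 660.1 and 661 FPKM in iKO-labelled libraries and to 825, 869 and 907 FPKM in controls. The 5 genes other than Prdx1 summed to 212 ± 19.4 FPKM in iKO-labelled libraries and 364 ± 20.1 FPKM in controls (SD, n = 3 each). Prdx1 took 67.9%, 68.8% and 70.3% of the family sum in iKO-labelled libraries and 58.2%, 58.4% and 57.5% in controls. With counts divided by the length of each representative transcript instead, the share of Prdx1 was 63.1% ± 1.23 in iKO-labelled libraries and 51.9% ± 0.31 in controls (SD, n = 3 each). Prdx6, next in level, took 10.8% ± 0.53 of the FPKM sum in iKO-labelled libraries and 14.1% ± 0.53 in controls.

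**Figure D3:**
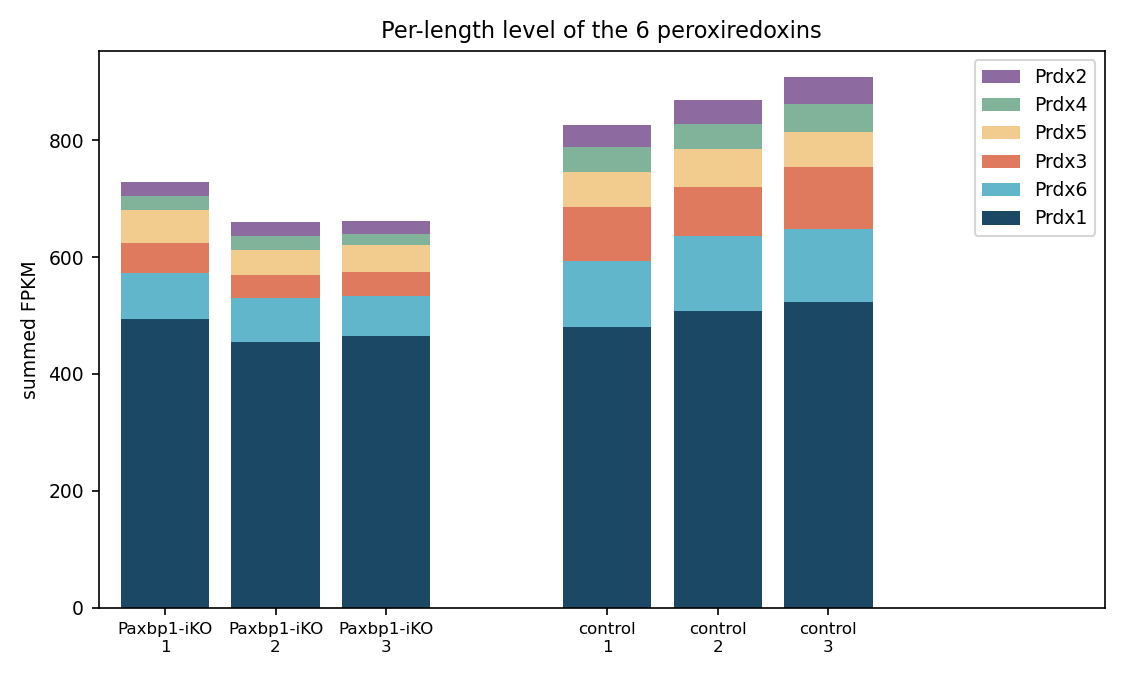
FPKM of the 6 peroxiredoxins stacked for each library, with colours for genes and the vertical axis starting at 0. The dark block of Prdx1 lies between 454 and 522 FPKM in all 6 libraries, and the blocks above it sum to 196 to 234 FPKM in iKO-labelled libraries and 345 to 385 FPKM in controls.

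Reads of some members could be shared with other rows. Prdx2 overlaps 177 exon bases of Rnaseh2a and 173 of Junb, and Prdx5 overlaps 409 of Trmt112, all on the opposite strand, and the library method keeps no strand. These partners stood at log2 fold changes of -1.40 ± 0.23 for Rnaseh2a (edgeR adjusted p = 0.00437), 0.47 ± 0.11 for Junb (0.017) and 0.44 ± 0.13 for Trmt112 (0.0472). Rnaseh2a thus moved in the direction of Prdx2, while Junb and Trmt112 moved opposite to the estimates of Prdx2 and Prdx5. Junb averaged 1490 CPM in iKO-labelled libraries and 1076 CPM in controls, far above Prdx2. Rnaseh2a averaged 13.7 CPM in iKO-labelled libraries and 36.1 CPM in controls, and Trmt112 50.9 and 37.5 CPM. The part of shared reads in the values of Prdx2 and Prdx5 was not tested. Processed pseudogenes resemble Prdx1 most: Gm21399 at 98.3% and Gm7204 at 97.5% identity over 597 coding bases. All copies of Prdx1 at 85% identity or more held 1.48% of its count, those of Prdx2 1.14%, the copy of Txn1 0.153% and that of Prdx6 0.0148%. The sources used here do not say how reads with several matches were counted. These overlap partners and copies were named with their values known, and the calls of Junb and Trmt112 ended under 4 and 10 of 20 alternatives.

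Regulators and clients of thioredoxin moved in both directions. Among 16 such genes 3 rose and 6 fell (median log2 fold change -0.36), beside 8.15% and 12.3% of all tested genes. Txnip, which binds reduced thioredoxin and blocks it, had 132, 104 and 79.0 CPM in iKO-labelled libraries, against 36.8, 44.8 and 53.4 CPM in controls. It rose without overlap between the groups (1.23 ± 0.21, edgeR adjusted p = 0.00574). Its FPKM amounted to 0.0808, 0.0675 and 0.0591 of that of Txn1 in iKO-labelled libraries and 0.0178, 0.0207 and 0.0229 in controls.

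Srxn1, sulfiredoxin, which rescues over-oxidised peroxiredoxins, had 155, 199 and 242 CPM in iKO-labelled libraries, against 389, 387 and 381 CPM in controls, and fell (-0.96 ± 0.15, edgeR adjusted p = 0.00334). The other genes that rose were the sestrins Sesn2 (0.74 ± 0.10, adjusted p = 0.00207) and Sesn1 (0.51 ± 0.13, adjusted p = 0.0263), stress proteins that hold back mTORC1. Sesn1 was named with its value known, and its call ended under 7 of 20 alternatives, among them without iKO 2, iKO 3, control 1 or control 3 (adjusted p = 0.1, 0.0816, 0.0724 and 0.0696). Ribonucleotide reductase, which thioredoxin supplies with electrons for DNA precursor synthesis, fell in its large subunit Rrm1 and its small subunit Rrm2, at -2.97 ± 0.14 for Rrm2 (adjusted p = 3.96e-05) and -2.00 ± 0.20 for Rrm1 (adjusted p = 0.000566). The alternative small subunit Rrm2b, named with its value known, was at 0.70 ± 0.58 and was not called (adjusted p = 0.465). Also lower, and named with their values known, were Txnrd3, a reductase known mainly from testis (-0.67 ± 0.11, adjusted p = 0.00485), and the methionine sulphoxide reductases Msra (-0.74 ± 0.19) and Msrb3 (-0.83 ± 0.24). The call of Msra ended without each library in turn other than control 2, and that of Msrb3 without each library in turn (adjusted p from 0.0555 to 0.0897 for Msra and from 0.0638 to 0.137 for Msrb3).

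A further list held 20 genes, for proteins with a thioredoxin fold and for the oxidases Ero1l and Ero1lb, which lack that fold. In this list 9 fell and 0 rose (median log2 fold change -0.40), beside 12.3% and 8.15% of all tested genes. Ero1l, named with its value known, was among those that fell (-0.88 ± 0.13, edgeR adjusted p = 0.00275), and Ero1lb was not called. The disulphide isomerases of the endoplasmic reticulum, which form and shuffle disulphides in secreted proteins, gave the smallest p-values of the list. Pdia4 averaged 71.7 ± 10.8 CPM in iKO-labelled libraries and 179 ± 19.8 CPM in controls (SD, n = 3 each), a log2 fold change of -1.32 ± 0.13 (edgeR adjusted p = 0.000566). Pdia6 fell by 0.73 ± 0.07, Pdia5 by 1.84 ± 0.24 and P4hb by 0.41 ± 0.06 on the log2 scale.

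Of 12 glutaredoxins and enzymes that run parallel to the peroxiredoxins, 3 fell and 1 rose (median log2 fold change -0.26). Beside them stand 12.3% lower and 8.15% higher of all tested genes, and the gap was not tested. The riser was Gpx8, a peroxidase of the endoplasmic reticulum membrane, at 126 ± 17.4 CPM in iKO-labelled libraries and 54.0 ± 2.54 CPM in controls (1.23 ± 0.12, edgeR adjusted p = 0.000542). Gpx4, which reduces lipid peroxides, fell (-0.66 ± 0.09), as did the superoxide dismutases Sod1 (-0.46 ± 0.09) and Sod2 (-0.32 ± 0.07). The call of Sod2 ended under 6 of 20 alternatives, among them without iKO 2, iKO 3 or control 2 (adjusted p = 0.0716, 0.0631 and 0.069).

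Txnrd1 and Prdx1 are known targets of the transcription factor Nrf2. Of 12 genes of the Nrf2 pathway, 8 fell and 0 rose (median log2 fold change -0.47), beside 12.3% and 8.15% of all tested genes. The number that fell was 5 without iKO 2, without control 2, with library totals as the scale and on unfiltered log2 FPKM. It was also 5 without mitochondrial and the 50 most abundant genes, and 3 against a 1.5-fold change. Nfe2l2, which encodes Nrf2, had 395, 393 and 356 CPM in iKO-labelled libraries, against 427, 439 and 458 CPM in controls. Its groups did not overlap, and its log2 fold change of -0.21 ± 0.07 missed the threshold (edgeR adjusted p = 0.0737). Among its classic targets, Hmox1, haem oxygenase, fell (-0.88 ± 0.07, adjusted p = 0.00017), as did Nqo1, a quinone reductase (-1.85 ± 0.21), Gsr, glutathione reductase (-0.97 ± 0.11), and Abcc1, an exporter of conjugates (-0.78 ± 0.09).

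**Figure D4:**
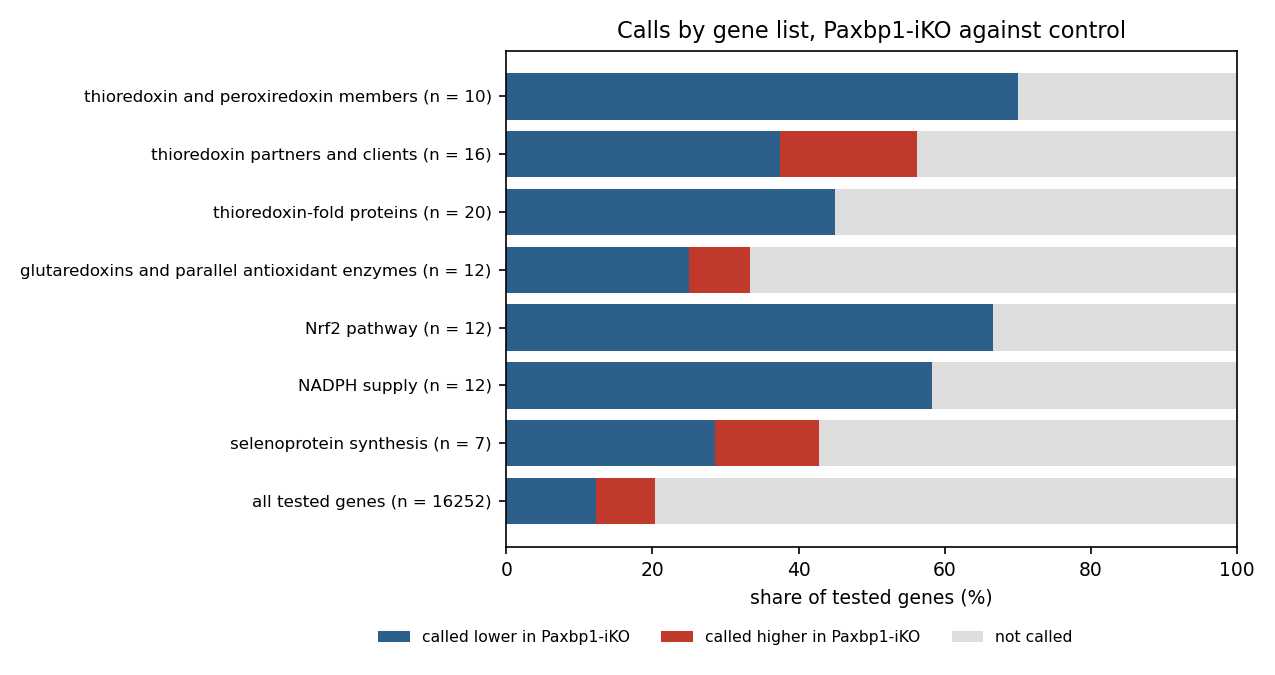
Share of tested genes called lower (blue), called higher (red) or not called (grey) in iKO-labelled libraries, for each gene list and for all tested genes, with the number tested in brackets. Of the 10 thioredoxin and peroxiredoxin genes 7 were lower, against 12.3% of all tested genes. The list of thioredoxin-fold proteins also holds the oxidases Ero1l and Ero1lb, which lack that fold.

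Electrons for the reductases come from NADPH. The list of NADPH supply held 12 genes, and some of them, such as Taldo1 and Tkt, encode enzymes that do not make NADPH themselves. In this list 7 fell and 0 rose (median log2 fold change -0.71), beside 12.3% and 8.15% of all tested genes. Idh2, the mitochondrial isocitrate dehydrogenase that yields NADPH, had 53.5, 46.1 and 32.2 CPM in iKO-labelled libraries, against 177, 196 and 201 CPM in controls (-2.12 ± 0.18, edgeR adjusted p = 0.000274). Me2, a mitochondrial malic enzyme that mainly uses NAD, fell by 1.55 ± 0.15 on the log2 scale. On the same scale Pgd of the pentose phosphate pathway fell by 0.86 ± 0.09 and the kinase Nadk, which makes NADP from NAD, by 0.58 ± 0.07. Both reductases are selenoproteins. Among 7 genes of selenoprotein synthesis, 2 fell and 1 rose, beside 12.3% and 8.15% of all tested genes, and the gap was not tested. Those that fell were Eefsec, the elongation factor for selenocysteine (-1.33 ± 0.21, adjusted p = 0.00403), and Sephs2, which makes selenophosphate (-0.86 ± 0.10, adjusted p = 0.000843). The single riser was Trnau1ap, a protein that binds the selenocysteine transfer RNA (0.55 ± 0.12, adjusted p = 0.0129), and its call ended under 4 of 20 alternatives, among them without iKO 2 (adjusted p = 0.0522).

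Promoter windows from RefSeq (GRCm38.p6, 250 bases before to 50 after an annotated start) were available for 9 members and searched on both strands for the core letters of the antioxidant response element, TGACNNNGC, to which Nrf2 binds. They occurred in the windows of 2 members, Txnrd1 and Prdx1, and in those of 3781 of 27025 genes. Counted by window rather than by gene, 4071 of 32851 windows (12.4%) held a match. The first base of the match lay 92 bases before the start in the second of the 3 windows of Txnrd1, and 133 bases before the start of Prdx1. Outside the members, it lay 28 bases after the start in Srxn1 and 134 bases before it in Gclm, and the windows of Nqo1 and Txnip held no match. The stretches around these matches are shown with the match in capitals, at chr10:82859089-82859148, chr4:116685441-116685500 and chr2:152105514-152105573, all on the plus strand.

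Txnrd1: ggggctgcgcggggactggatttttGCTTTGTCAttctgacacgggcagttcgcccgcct

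Prdx1: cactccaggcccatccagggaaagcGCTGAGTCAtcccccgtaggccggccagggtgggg

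Srxn1: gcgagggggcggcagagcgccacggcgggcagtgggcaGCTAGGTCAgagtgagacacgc

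The Prdx1 match also holds TGAGTCA, the letters of an AP-1 site, which on either strand occurred in windows of 5.9% of genes and of no other member. The window of Srxn1 holds those letters too, outside the match. Of the genes with a match, Txnrd1, Srxn1 and Gclm (-0.79 ± 0.11, edgeR adjusted p = 0.00247, named with its value known) fell and Prdx1 did not pass the test. Of those without one, the members Txn1, Txnrd2, Prdx2, Prdx3 and Prdx4 fell, as did Nqo1. Txn2 and Prdx5, also without a match, did not pass the test, and Txnip rose. The match is a description of letters and says nothing of binding in these cells.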

How the data were processed

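The authors deposited raw counts of reads for each gene in each library, and FPKM for the same 46078 rows, per the file headers and the labels. Libraries were made by Smart-Seq2, per the labels' protocols, and the tools listed in the submitters' processing notes are STAR, Trim Galore, featureCounts, Subread and DESeq2, with the build mm10. The sources used here state no annotation, strand setting or rule for multiple matches. The 551 rows with no gene name, 0.108% to 0.123% of counts, were left out, as was a second Txnrd2 row at 0 counts. The deposited FPKM followed median-of-ratios size factors. Their lengths matched the GENCODE M21 exon union within 1% for 69.6% of genes with 20 counts in every library and for 8 members, with 0.482 of it for Txnrd1 and 0.763 for Txnrd2.

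Counts were fitted with edgeR 4.0.16 in R 4.3.3 (filterByExpr, minimum count 10, total 15; TMM; quasi-likelihood test; group only), and genes were called at a Benjamini-Hochberg adjusted p under 0.05 over 16252 genes. SE is the log2 fold change over the square root of F. CPM are TMM-scaled. The fit was tested on simulated data. Other tools were limma 3.58.1, DESeq2 1.42.0, BLAST 2.17.0 and matplotlib 3.10.9. Members and lists were chosen with earlier results of these data known. Named genes were all members, Paxbp1, Txnip, Srxn1, Nfe2l2 and the 4 smallest p-values of each list, of which some are given only in counts, and marker lists are given as sums.

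The 20 alternatives were other scalings (RLE, upper quartile, library totals), other filters, DESeq2, limma on voom weights or on log2 FPKM with a pseudocount of 1 or 0.1, a test against 1.5-fold, a replicate block, abundant genes left out, GC and length trends removed, and each library dropped in turn. Values of 1 further gene are not reported here.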

Additional observations from a re-analysis of the deposited data

How the results depend on the processing

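Over 20 alternatives the number of members called lower was 7 or 8, except 4 when tested against a 1.5-fold change and 6 without mitochondrial and the 50 most abundant genes, where Txnrd1 was itself left out. Leaving out each library gave 7 to 8. The number called higher was 0, except 1 (Txn2) under library totals. Genes called in all numbered 3315, with 2053 to 2816 when a library was left out (2053 without iKO 2, 2103 without iKO 3). Higher genes numbered 706 to 1159 and lower genes 1347 to 1657 with a library left out, against 1324 and 1991 with all. Against a 1.5-fold change 817 genes were called, 322 higher and 495 lower, and DESeq2 called 2100 higher. The causes were not tested. Signs turned for Prdx1 (0.0214) under library totals, and for Gm7204, at 0.05 with all libraries, with GC and length trends removed (-0.21) and without iKO 1, where leaving out each library gave -0.0051 to 0.098. Of 958 values of named genes over the alternatives, 878 kept their direction and side of the threshold, and 225 of 240 list counts stayed within 1.5-fold. The sources used here speak of pairs but do not say that a shared number marks a litter or day. Labels give both groups the replicate numbers 1 to 3. Deviations of same-numbered libraries correlated at -0.0668, -0.00212 and -0.0593, and the numbers were not taken as pairs. With 3 libraries per group, these values cannot exclude a pairing. With the replicate number as a block, 2215 genes were called, 813 higher and 1402 lower, and the same number of members, 7, was lower. Depth limits precision for Txnrd2, with 188 to 534 counts per library.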
